A study of Mus musculus with 28 samples.

Results

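IL-4 with LPS was compared with LPS alone in mouse bone marrow-derived macrophages, on 11 of the 28 arrays of the study. The members were chosen by array title, which gave 4 arrays of cells that received IL-4 and LPS and 7 arrays of cells that received LPS alone. Marrow came from C57BL6/J mice of 8 to 12 weeks and the labels name no genetic change. Cells of several animals were pooled, the labels name 2 males and 1 female, and all groups were grown in human CSF1 (200 ng/ml), the growth factor of macrophages. From day 7 the IL-4 with LPS cells received IL-4 (10 ng/ml) for 18 h, with LPS (10 ng/ml) added for the last 4 h while IL-4 stayed on. The LPS alone cells received the same 4 h of LPS and no IL-4. IL-4 alone (18 h, 4 arrays) and untreated cells (7 arrays) are given beside them where the IL-4 difference without LPS is needed. These 11 arrays are separate from the 11 of the comparison, though some lay on the same slides. The labels give arrays an experiment letter (A, B, C and G with IL-4 and A to G without). Since animals were pooled, the p-values measure a spread between arrays, not between animals. That spread is taken within all 6 groups of the 28 arrays, not within the 11 arrays alone.

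LPS, a component of the bacterial outer membrane, is handed by CD14 to the receptor TLR4, which signals through NF-kappaB and IRF3 to inflammatory cytokines and interferon beta. Interferon beta acts back on the cell and raises antiviral genes. IL-4, a cytokine of type 2 immunity, acts through its receptor and the transcription factor STAT6 on a programme called alternative activation, known for arginase, lectins, resistin-like proteins and chemokines that attract eosinophils and Th2 cells.

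Values are scaled intensities, called units here, in which each array's 75th percentile is 1000. The 4 values of the IL-4 with LPS arrays are given in the order A, B, C and G, and the 7 LPS values as lowest, median and highest. Differences are log2 differences ± SE of a limma model over all 28 arrays, IL-4 with LPS minus LPS alone, with adjusted p from limma after Benjamini-Hochberg adjustment over the 22407 genes tested. A gene was called at an adjusted p under 0.05. Shares of all genes are given for such calls only. Counts of list members at an unadjusted p under 0.05 have no such share beside them and describe the list alone. The raw 75th percentile was 838 to 1127 intensity units on the IL-4 with LPS arrays and 769 to 1284 on the LPS arrays, and 62.4% to 72.1% and 60.3% to 72.3% of gene probes were well above background. Arrays correlated at 0.957 to 0.977 across genes within IL-4 with LPS and at 0.96 to 0.99 within LPS. Each IL-4 with LPS array shared a slide with 1 LPS array (slides 1, 2, 4 and 9), and after removal of group means the arrays of a slide correlated at 0.506 to 0.814. The slide is therefore given as a block, and the difference within each slide, where a result turns on it. All 10 macrophage markers were well above background on all 11 arrays, and 3 of them fell and 0 rose. Of all genes tested 4.6% were lower and 4.37% higher. With the slide as a block 4 fell and 1 rose, beside 8.54% lower and 8.59% higher of all genes. Among the 3 were Aif1 (an actin-binding protein) at -0.96 ± 0.22 and Fcgr1 (the high-affinity IgG receptor) at -0.82 ± 0.20. A second Fcgr1 probe gave -1.42 ± 0.26, and the call was lost without IL-4 with LPS array G (-0.59, adjusted p = 0.0808). Of 6 B cell markers 2 rose, Cd79b, a chain of the B cell receptor complex, at 1.97 ± 0.28, and Cd22, a B cell lectin, at 0.73 ± 0.22. The Cd22 call was lost in several settings, among them normexp correction (0.39, adjusted p = 1), and without array B, C or G of IL-4 with LPS or A, B, C or G of LPS, at 0.66 (adjusted p = 0.122) without IL-4 with LPS array C. Of 6 tested T cell markers 1 was lower, as was 1 of 3 tested eosinophil markers. Both calls were lost in several fits without 1 array. The other marker lists had 0 called. The summed level of the B cell markers was 3349 to 7373 units with IL-4 and LPS and 1258 to 2578 with LPS alone, and its part in other results was not tested. In these whole cultures fewer cells of a type and less RNA per cell cannot be told apart.

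IL-4 with LPS and LPS alone differed in 2011 genes, 8.97% of those tested. Higher with IL-4 and LPS were 980 genes (4.37%) and lower 1031 (4.6%), with 500 (2.23%) at 2-fold or more higher and 550 (2.45%) at 2-fold or more lower. With the array median in place of the 75th percentile 1103 genes were called, of which 37.4% were higher, against 48.7% in the main scaling. Of the called genes 1976 (98.26%) differed in the same direction on all 4 slides, as did 38.96% of all genes tested. The arrays of these slides also gave the calls, so this share is a description and no separate support. With the slide as a block 3839 genes were called (17.1%), 1925 higher (8.59%) and 1914 lower (8.54%), and 1968 of the 2011 genes were called in the same direction. The median difference over all genes was 0.08. The groups did not overlap for 1501 genes (6.7%), and 1204 of the called genes were among them. The calls of genes named in these Results depended on the setting, in some of the settings as follows. With only experiments A, B, C and G in the compared groups Cxcl9, Ifit3, Igtp, Il12b, Lbp, Slamf1, Slc2a3 and Traf3 lost theirs. Agmat, Cd69 and Irgm2, named further below, lost theirs there too. They also did with normexp correction, the array median, the compared groups alone and the experiment letter as a block. With normexp background correction Aif1, C1s1, Ccr3, Cd22, Cd55, Cox8a, Cx3cr1, Cxcl3, Cxcl9, Cyp1b1, Ear10, ENSMUST00000030808, Fcgr1, Ifit3, Igtp, Il12b, Il1r1, Il23a, Irf5, Itga8, Lbp, Pla2g5, Pparg, Prokr1, Rbp4, Shisal2b, Slamf1, Slc2a3, Traf3 and Txk lost theirs. With the array median those of Aco1, Cd22, Cox8a, Cxcl3, Ifit3, Igtp, Il23a, Ndufb5, Pparg, Slc2a3 and Traf3 were lost. In a model of the compared groups alone Cd22, Cfb, Cxcl3, Cxcl9, Igtp, Il12b, Il13ra1, Il23a, Il4ra, Itgax, Lbp, Prokr1, Slc2a3 and Traf3 lost theirs, with the experiment letter as a block Cxcl3, Il12b, Lbp and Slc2a3, and in pairs within slides Cd22, Fcgr1, Il10 and Il12b.

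The 15 largest rises included secreted proteins, chemokines, a lectin and adhesion molecules. Retnla read 251530, 203330, 317760 and 155750 units with IL-4 and LPS, against 1.97, 3.63 and 7.83 with LPS alone. Retnla encodes a secreted resistin-like protein and was not well above background on any LPS array, so it was at least 36983-fold higher with IL-4 and LPS (adjusted p = 1.25e-17). Arg1 read 20616, 4877, 7732 and 37113 units with IL-4 and LPS, against 4.43, 5.42 and 14.7 with LPS alone. Arginase 1, which turns arginine into ornithine and urea, was likewise below background on all LPS arrays and at least 1612-fold higher (adjusted p = 1.78e-12). The 4 arrays of IL-4 with LPS differed among themselves, with array G the highest and B the lowest, and stood far above every LPS array. Ccl24 read 51843, 63435, 101910 and 17872 units with IL-4 and LPS, against 113, 168 and 586 with LPS alone. This eotaxin, a ligand of the eosinophil chemokine receptor CCR3, was higher by 7.84 ± 0.57 (adjusted p = 1.21e-09), and Ccl17 read 16014, 28706, 49768 and 27677 units with IL-4 and LPS, against 234, 739.8 and 1957 with LPS alone. Ccl17, a ligand of CCR4 on Th2 cells, was higher by 5.33 ± 0.45 (adjusted p = 1.05e-08), and neither chemokine's groups overlapped.

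Rnase2a, an eosinophil-associated ribonuclease, rose by 8.20 ± 0.49 (adjusted p = 3.34e-11) and the related Ear10 by 5.01 ± 0.58 (adjusted p = 1.58e-06). These ribonuclease genes are near-identical copies, so which of them the probes read is uncertain. Mgl2 read 36590, 18633, 33380 and 46268 units with IL-4 and LPS, against 154, 298 and 468 with LPS alone. Mgl2, a C-type lectin that binds galactose-type sugars, rose by 6.86 ± 0.30 (adjusted p = 6.73e-14) with no overlap. Pdcd1lg2 read 2655, 3007, 5069 and 1724 units with IL-4 and LPS, against 20.7, 33.8 and 126 with LPS alone. PD-L2, the ligand of the T cell inhibitory receptor PD-1 that this gene encodes, rose by 6.00 ± 0.55 (adjusted p = 3.43e-08). Fn1 (fibronectin) rose by 5.51 ± 0.50, Cdh1 (E-cadherin) by 5.19 ± 0.45, Aqp3 (a water and glycerol channel) by 5.24 ± 0.40, Flt1 (a VEGF receptor) by 4.82 ± 0.33 and Cyp1b1 (a cytochrome P450) by 6.31 ± 0.61. Rbp4, a retinol carrier, was below background on all LPS arrays and at least 69.7-fold higher with IL-4 and LPS (adjusted p = 8.88e-09). Itgax read 32217, 50724, 64638 and 55000 units with IL-4 and LPS, against 3, 3899 and 5518 with LPS alone. The difference of Itgax, the integrin CD11c, was 5.16 ± 1.24 (adjusted p = 0.0076) and rests in size on LPS array F, the array at 3 units, while the other LPS arrays read 2774 to 5518. Without array F it was 3.68 (adjusted p = 5.37e-09), and a second probe, above background on all 11 arrays, gave 1.51 ± 0.31, so the size is uncertain. Within the slides it was 3.70, 3.54, 4.04 and 3.32, none of which holds array F, and in a model of the compared groups alone it was not called (5.16, adjusted p = 0.153). With normexp background correction, which shrinks differences of dim probes, Rbp4 (2.36, adjusted p = 0.0897), Cyp1b1 (2.65, adjusted p = 0.0551) and Ear10 (2.50, adjusted p = 0.0734) were no longer called.

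Promoter sequences are shown for the members of this group whose window holds TTCNNNNGAA, the spaced palindrome that STAT6 is known to bind. The RefSeq table (GRCm38.p6, 250 bases before to 50 after a gene's start) held windows for 11 of the 15 genes with the largest rises. Each line gives 60 bases read in the gene's direction, 5′ to 3′, with the match in capitals.
Retnla, chr16:48842439-48842498, plus strand: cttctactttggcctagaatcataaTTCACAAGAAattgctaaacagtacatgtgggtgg
Rbp4, chr19:38125407-38125466, minus strand: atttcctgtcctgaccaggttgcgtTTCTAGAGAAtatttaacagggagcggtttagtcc
Pdcd1lg2, chr19:29410812-29410871, plus strand: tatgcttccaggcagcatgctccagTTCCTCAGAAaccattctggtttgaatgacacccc
Ccl17, chr8:94810274-94810333, plus strand: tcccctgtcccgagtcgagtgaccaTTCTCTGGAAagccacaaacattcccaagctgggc
Itgax, chr7:128129398-128129457, plus strand: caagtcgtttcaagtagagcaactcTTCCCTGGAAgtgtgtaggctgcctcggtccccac
The matches began at -145 from the start of Retnla, -120 of Rbp4, -82 of Pdcd1lg2, -154 of Ccl17 and -127 of Itgax. Both strands were searched, and this motif reads the same on both. It was in 6.95% of all 32851 windows and in a window of 6.87% of the 13541 tested genes that have one. Of the genes called higher 54 of 685 (7.88%) held it and of those called lower 46 of 737 (6.24%) beside 5 of the 11 largest rises. The place of Itgax among these rises rests on LPS array F, without which its difference was 3.68. Among the 12 largest falls with a window Txk held it.
Txk, chr5:72752742-72752801, minus strand: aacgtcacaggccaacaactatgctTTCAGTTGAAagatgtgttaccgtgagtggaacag
This was 1 of 6 motifs, all searched on both strands after the values were known. TTCNNNGAA was in windows of 1 of the 11 rises and 2 of the 12 falls (8.3% of all windows), GAAANNGAAA of 0 and 1 (3.44%), GGGNNNTTCC of 0 and 2 (5.56%), GGGANTTTCC of 0 and 0 (0.411%) and TGANTCA of 2 and 1 (7.81%). Every match of GGGANTTTCC is also a match of GGGNNNTTCC. A match is a run of letters in these windows and shows no binding.

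**Figure D1:**
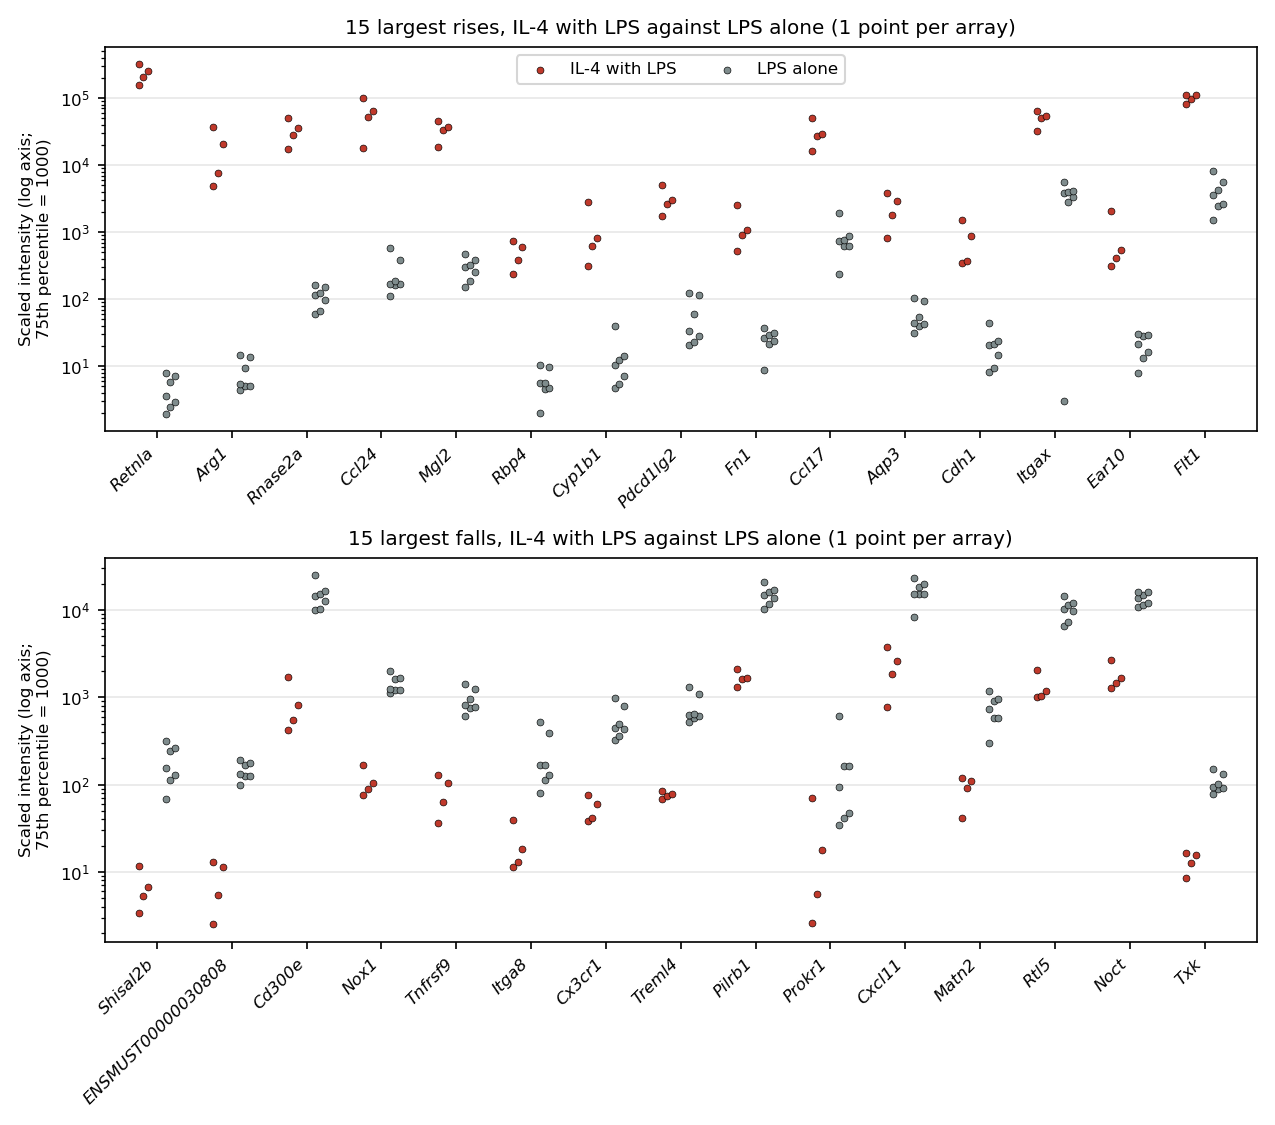
Scaled intensity (log axis, 75th percentile = 1000) of the 15 genes with the largest rises (top) and falls (bottom), 1 point per array, with IL-4 and LPS in red and LPS alone in grey. The groups do not overlap for these genes except Prokr1, and 1 LPS point of Itgax lies at 3 units, below the other LPS points at 2774 to 5518.

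The 15 largest falls included 6 cell surface receptors and an NADPH oxidase. Cd300e read 544, 1687, 812 and 425 units with IL-4 and LPS, against 9948, 14404 and 25137 with LPS alone. Cd300e, an activating receptor of myeloid cells, fell by 4.25 (SE 0.32, adjusted p = 2e-09). Nox1 read 103, 167, 75.3 and 90 units with IL-4 and LPS, against 1107, 1229 and 2008 with LPS alone. Nox1, a catalytic subunit of NADPH oxidase, differed by -3.76 ± 0.28 (adjusted p = 2e-09) and its groups did not overlap. Tnfrsf9 read 63.5, 103, 129.7 and 35.9 units with IL-4 and LPS, against 610.3, 809 and 1427 with LPS alone. Tnfrsf9, the costimulatory receptor 4-1BB, differed by -3.59 ± 0.47 (adjusted p = 7.77e-06), again without overlap, but a second probe of the gene, above background on all 11 arrays, gave 0.15 ± 0.49 (unadjusted p = 0.759 by limma), so its fall is uncertain. Cx3cr1 read 59.6, 37.9, 41.8 and 75.2 units with IL-4 and LPS, against 326, 444 and 991 with LPS alone. Cx3cr1, the fractalkine receptor, differed by -3.30 ± 0.46 (adjusted p = 2.05e-05) with every IL-4 with LPS array below every LPS array, and its second probe gave -1.15 ± 0.32. Pilrb1, an activating paired receptor with a near-identical neighbour gene that the probe may also read, differed by -3.15 ± 0.22 (adjusted p = 5.96e-10) and Treml4, a TREM family receptor, by -3.25 ± 0.35 (adjusted p = 5.48e-07). Noct, a circadian phosphatase, differed by -2.99 ± 0.19 (adjusted p = 1.08e-10) and Rtl5, a retrotransposon-derived gene, by -3.00 ± 0.31 (adjusted p = 2.55e-07). Shisal2b was not well above background on any IL-4 with LPS array and at least 18.8-fold lower there (adjusted p = 7.01e-08), and the transcript the array calls ENSMUST00000030808 likewise at least 13.4-fold lower (adjusted p = 5.98e-08). Matn2 (a matrix protein), Itga8 (an integrin chain), Txk (a Tec family kinase) and Prokr1 (a prokineticin receptor) also belonged to the 15, at -3.04 ± 0.38, -3.34 ± 0.62, -2.99 ± 0.42 and -3.12 ± 0.74, as did the chemokine Cxcl11, whose values stand with the chemokines. The groups of Prokr1 overlapped, and its call was lost without IL-4 with LPS array G (-2.40, adjusted p = 0.054). With normexp correction the dim genes Shisal2b (-1.20, adjusted p = 0.764), ENSMUST00000030808 (-1.25, adjusted p = 0.631), Itga8 (-1.21, adjusted p = 0.602), Cx3cr1 (-1.78, adjusted p = 0.0814), Prokr1 (-0.98, adjusted p = 0.924) and Txk (-0.85, adjusted p = 0.894) were not called.

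Of the IL-4 pathway's own genes, the receptor chains were lower, and of 11 STAT and Janus kinase genes 0 were higher and 2 lower. At an unadjusted p under 0.05, for which no share of all genes is given, limma gave 2 higher and 4 lower. Stat6 read 6613, 4329, 5765 and 7297 units with IL-4 and LPS, against 3889, 4789 and 5898 with LPS alone. Stat6, the transcription factor that IL-4 activates, was not called (0.33 ± 0.14, adjusted p = 0.191), nor was Socs1, an inhibitor of cytokine signalling, at 0.56 ± 0.22 (adjusted p = 0.125). Il4ra read 29379, 40782, 39461 and 11573 units with IL-4 and LPS, against 50271, 66535 and 114630 with LPS alone. The IL-4 receptor chain Il4ra differed by -1.43 ± 0.32 (adjusted p = 0.00423), and Il13ra1, which pairs with it, by -1.23 ± 0.28 (adjusted p = 0.00453). The Il4ra groups did not overlap, those of Il13ra1 did. Jak3, a kinase bound to the common gamma chain, differed by -0.98 ± 0.20 (adjusted p = 0.0016) with no overlap, and Stat4, a signal transducer of IL-12, by -1.75 ± 0.36 (adjusted p = 0.0019). In the list of alternative activation genes and STAT6 targets, whose members were chosen with IL-4 results of these data known, 26 of 36 tested members were higher and 4 lower, with a median difference of 3.21. Over all genes the median was 0.08, and 4.37% were higher and 4.6% lower. Among the members were Mrc1 (the mannose receptor) at 1.74 ± 0.24 (adjusted p = 2.27e-05) and Ccl22 (a CCR4 ligand) at 3.78 ± 0.60 (adjusted p = 9.87e-05). Irf4 read 385, 258, 388 and 650.5 units with IL-4 and LPS, against 16.1, 29.4 and 37.5 with LPS alone. Irf4, a transcription factor of alternatively activated macrophages and dendritic cells, rose by 3.80 ± 0.34 (adjusted p = 3.06e-08) with no overlap. Of 44 inducible transcription factor genes 10 were higher and 5 lower (22.7% and 11.4%, beside 4.37% and 4.6% of all genes). Batf3 read 10197, 6901, 13727 and 8140.2 units with IL-4 and LPS, against 359, 502 and 1359 with LPS alone. Batf3, a basic leucine zipper factor that partners with JUN proteins and IRF4 or IRF8, rose by 3.93 ± 0.29 (adjusted p = 1.44e-09), the helix-loop-helix repressor Bhlhe40 by 3.74 ± 0.32 (adjusted p = 1.23e-08) and the zinc finger factor Egr2 by 2.41 ± 0.34 (adjusted p = 2.14e-05). Jun read 1900.0, 1309, 1839 and 806 units with IL-4 and LPS, against 4095, 8429.6 and 9163 with LPS alone. Jun, an AP-1 subunit, was lower, at -2.35 ± 0.26 (adjusted p = 6.84e-07), and no IL-4 with LPS array reached the LPS arrays.

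**Figure D2:**
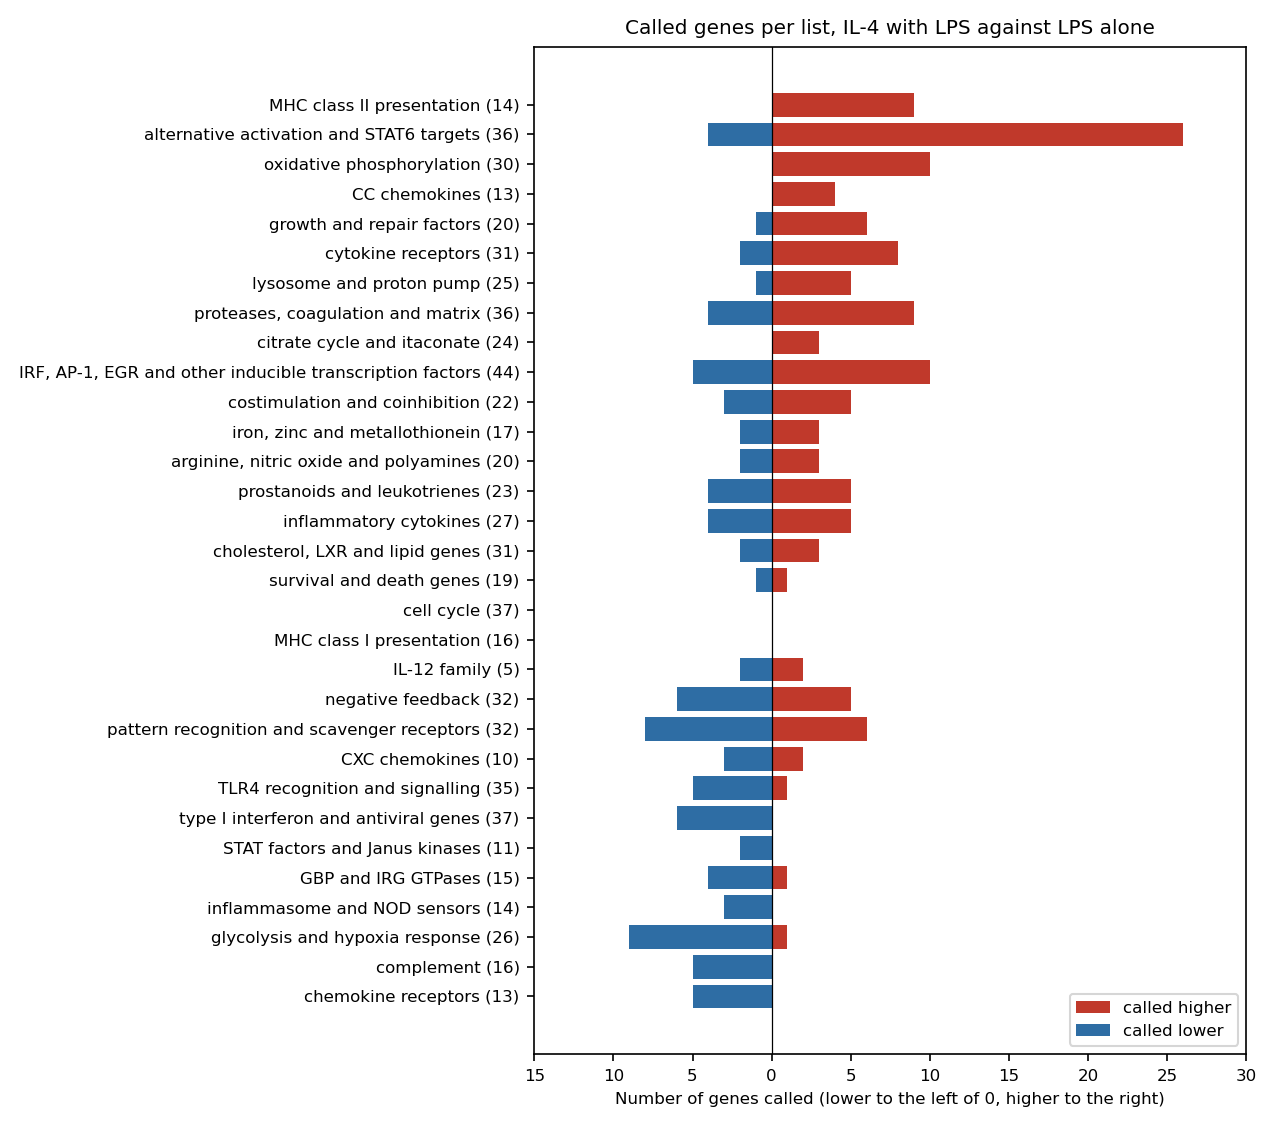
Number of genes called higher (red, right of 0) and lower (blue, left of 0) in each of 31 gene lists, with the number of tested members in brackets. The list of alternative activation genes and STAT6 targets has 26 higher and 4 lower, MHC class II presentation 9 and 0, and glycolysis 1 and 9.

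The machinery that detects LPS was lower in parts. Cd14 read 76118, 75756, 93128 and 94176 units with IL-4 and LPS, against 136660, 199800 and 254840 with LPS alone. Cd14, the co-receptor that hands LPS to TLR4, differed by -1.24 ± 0.18 (adjusted p = 3.29e-05), and within slides by -0.85, -1.24, -1.28 and -1.44. Tlr4 read 3234, 4010.1, 3546 and 1513 units with IL-4 and LPS, against 1815, 2874 and 3042 with LPS alone. Tlr4 itself was not called (0.18 ± 0.25, adjusted p = 0.801, 95% interval -0.34 to 0.70). Of 35 tested genes of TLR4 recognition and signalling 1 was higher and 5 were lower, with a median of -0.08, and with the slide as a block 2 and 10. Of all genes 4.37% were higher and 4.6% lower, and 8.59% and 8.54% with that block. With normexp correction 0 of the 35 were higher and 1 lower. Irf5, a transcription factor downstream of MyD88, was lower, at -1.04 ± 0.20 (adjusted p = 0.000839) with overlapping groups, and without overlap Lbp, the LPS binding protein, at -1.19 ± 0.31 (adjusted p = 0.0142). The Lbp call was lost without IL-4 with LPS array G (-1.09, adjusted p = 0.0583) or A (-1.07, adjusted p = 0.0649). Traf3, an adaptor of the same pathway, rose by 0.96 ± 0.25 (adjusted p = 0.0119), a call lost without array B (0.75, adjusted p = 0.0774). Negative feedback genes went both ways, with 5 of 32 higher and 6 lower (15.6% and 18.8%). Cish, a STAT5-induced SOCS protein, rose by 3.43 ± 0.59 (adjusted p = 0.000293) and the MAP kinase phosphatase Dusp4 by 2.58 ± 0.42 (adjusted p = 0.000151), while the phosphatases Dusp1 and Dusp2 were lower, at -1.67 ± 0.28 (adjusted p = 0.000267) and -1.46 ± 0.24 (adjusted p = 0.000149). Dusp1 read 26650, 28112, 47924 and 12931 units with IL-4 and LPS, against 60363, 75082 and 111510 with LPS alone. The groups of these 4 genes did not overlap.

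Cytokine genes split, and the subunits of the IL-12 family moved apart. Il12a read 2484, 2363, 5348 and 6099 units with IL-4 and LPS, against 86.3, 239 and 768 with LPS alone. Il12a, the p35 subunit of IL-12, rose by 3.80 ± 0.50 (adjusted p = 9.86e-06), with 4.78, 3.38, 2.80 and 4.11 within slides. Il12b read 3105, 1299, 7603 and 2787 units with IL-4 and LPS, against 3839, 8289 and 21986 with LPS alone. Il12b, the p40 subunit shared by IL-12 and IL-23, was lower, at -1.76 ± 0.49 (adjusted p = 0.0224), but the groups overlapped and with the slide as a block it was not called (-1.40, adjusted p = 0.0639). Its call was also lost without IL-4 with LPS array A, B or G or LPS array G, the last giving -1.57 (adjusted p = 0.0519) and array B the smallest value, -1.35 (adjusted p = 0.125). Il23a read 58.5, 19.8, 53.3 and 92.9 units with IL-4 and LPS, against 5.05, 12.9 and 30.6 with LPS alone. Il23a, the p19 subunit of IL-23, rose by 2.00 ± 0.61 (adjusted p = 0.0395) with overlap, and 7 of the 11 fits without 1 array did not call it, with the lowest value without IL-4 with LPS array G (1.69, adjusted p = 0.146). The other arrays whose removal ended the call were A and C of IL-4 with LPS and A, B, C and G of LPS. Ebi3 read 107840, 99161, 145910 and 74106 units with IL-4 and LPS, against 191710, 213890 and 298000 with LPS alone. Ebi3, the subunit shared by IL-27 and IL-35, was lower, at -1.11 ± 0.17 (adjusted p = 9.87e-05) without overlap, and Il27, its partner subunit in IL-27, was not called (-0.17 ± 0.36, adjusted p = 0.884).

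Il10 read 3552, 2951, 3200.0 and 1537 units with IL-4 and LPS, against 4609, 7999.8 and 10498 with LPS alone. Il10, an anti-inflammatory cytokine, was lower, at -1.46 ± 0.25 (adjusted p = 0.000256), and all IL-4 with LPS arrays lay below all LPS arrays. Tnf read 99429, 65866, 105990 and 160880 units with IL-4 and LPS, against 74593, 105360 and 132590 with LPS alone. Tnf, an early inflammatory cytokine, was not called (0.05 ± 0.36, adjusted p = 0.968), with a 95% interval of -0.69 to 0.78. Il6 read 89586, 41489, 146860 and 89295 units with IL-4 and LPS, against 8473, 32541 and 61851 with LPS alone. Il6, an acute phase cytokine, was not called (1.59 ± 0.56, adjusted p = 0.0804) but was with the slide as a block (1.56, adjusted p = 0.0337), and within slides it was higher by 2.29, 1.46, 2.03 and 1.71. Il1b read 145390, 103900, 170830 and 121850 units with IL-4 and LPS, against 77962, 88353 and 98651 with LPS alone. The Il1b groups did not overlap, yet the gene was not called (0.59 ± 0.53, adjusted p = 0.654). That SE is taken from the spread within all groups of the study, not within the groups compared alone. Within slides Il1b was 0.41, 0.62, 0.79 and 0.55, and in pairs within slides it was called (0.59, adjusted p = 0.029). Ifnb1, interferon beta, was not called (0.29 ± 0.55, adjusted p = 0.86), with a 95% interval of -0.84 to 1.43. Over the list of 27 inflammatory cytokines 5 were higher and 4 lower, beside 4.37% and 4.6% of all genes. Without IL-4 with LPS array A or C 2 were higher. The list's median of 0.434 turned negative with only genes above background on all 28 arrays. Inhba, a subunit of activins, rose by 1.84 ± 0.30 (adjusted p = 0.000182), and Tnfsf10, the death ligand TRAIL, was lower, at -1.52 ± 0.20 (adjusted p = 1.18e-05), both without overlap.

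**Figure D3:**
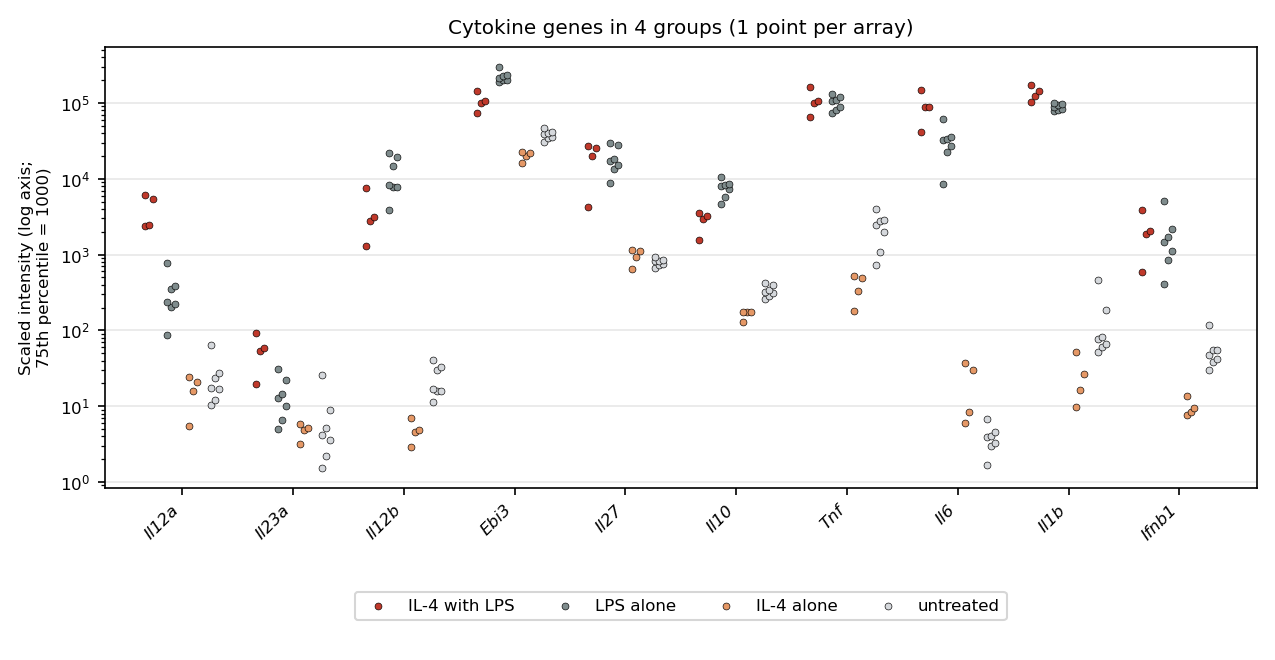
Scaled intensity (log axis, 75th percentile = 1000) of 10 cytokine genes, 1 point per array, with IL-4 and LPS, LPS alone, IL-4 alone and untreated from left to right for each gene. Il12a is higher with IL-4 and LPS than with LPS alone, Il10 and Ebi3 are lower, and the points of Tnf overlap.

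**Figure D4:**
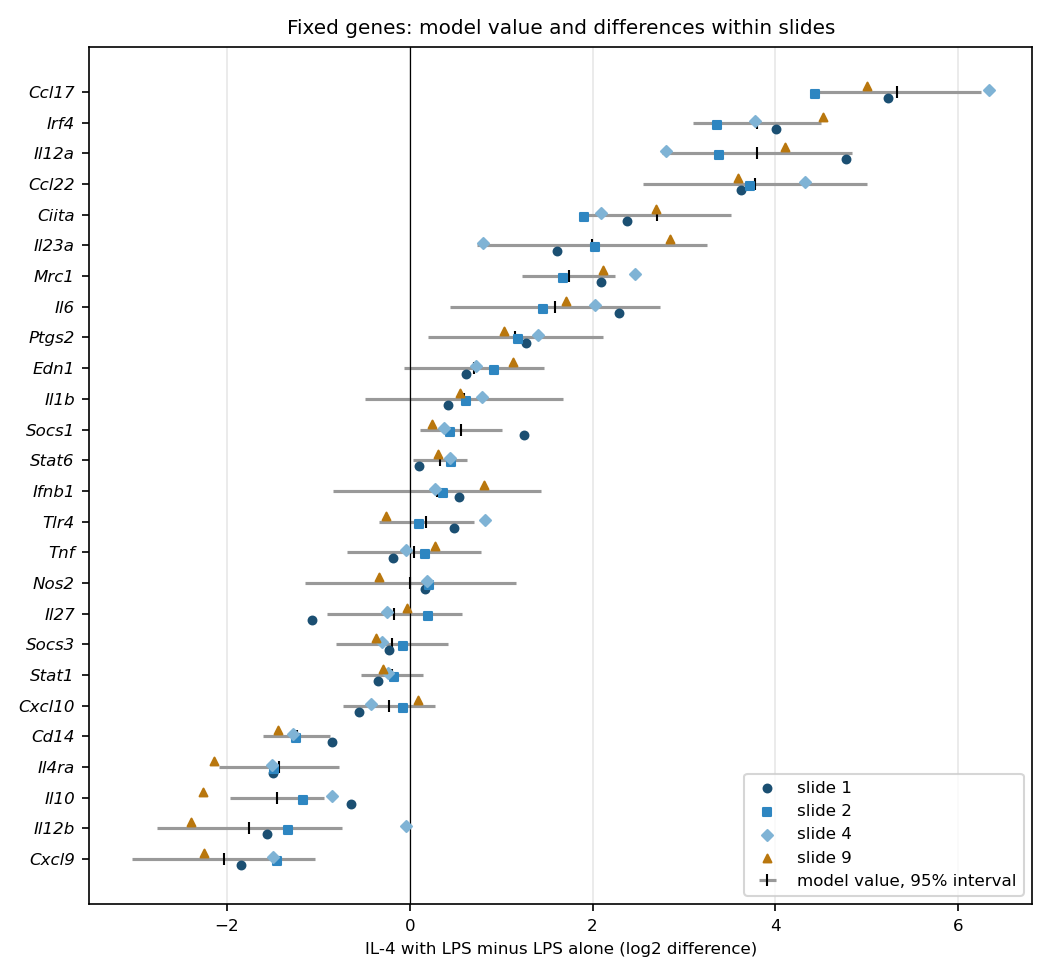
Log2 difference (IL-4 with LPS minus LPS alone) of 26 of the 28 fixed genes, without Retnla and Arg1, with the model value and its 95% interval (black tick and grey bar) and the difference within slides 1, 2, 4 and 9 (coloured points). The points of Il12a, Irf4, Ccl17 and Ccl22 lie right of 0 on all 4 slides and those of Cd14, Il10 and Il4ra left of 0, while those of Tnf and Nos2 lie on both sides.

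Chemokines of type 2 immunity were higher and 2 of 3 CXCR3 ligands lower. Of 13 tested CC chemokine genes 4 were higher and 0 lower, beside 4.37% and 4.6% of all genes. At an unadjusted p under 0.05 limma also gave 0 lower. Ccl22 read 1417, 1888, 5488 and 2267 units with IL-4 and LPS, against 108, 185 and 274 with LPS alone. These groups did not overlap, and neither did those of Ccl8, a ligand of CCR8 in mice, which rose by 2.65 ± 0.33 (adjusted p = 5.05e-06). Cxcl11 read 3729, 769.8, 2589 and 1842 units with IL-4 and LPS, against 8250.2, 15271 and 23525 with LPS alone. Cxcl11, a CXCR3 ligand, was lower, at -3.04 ± 0.34 (adjusted p = 9.56e-07) without overlap. Cxcl9 read 8561, 2974, 23752 and 2988 units with IL-4 and LPS, against 10726, 25850 and 66992 with LPS alone. Cxcl9, another CXCR3 ligand, was lower, at -2.04 ± 0.48 (adjusted p = 0.0069) with overlap, and Cxcl10 read 306590, 198530, 264350 and 342000 units with IL-4 and LPS, against 266050, 321990 and 354450 with LPS alone. Cxcl10, the third CXCR3 ligand, was not called (-0.23 ± 0.24, adjusted p = 0.731, 95% interval -0.73 to 0.28). Cxcl3, a neutrophil attractant, rose by 2.13 ± 0.59 (adjusted p = 0.0217), a call lost without IL-4 with LPS array G (1.62, adjusted p = 0.125). Among 13 chemokine receptors 0 were higher, also by limma at an unadjusted p under 0.05, and 5 lower (3 without IL-4 with LPS array A or G or LPS array F). Beside Cx3cr1 these included Ccr3, the eotaxin receptor, at -1.20 ± 0.20 (adjusted p = 0.000164), though its second probe gave -0.47 ± 0.37 (unadjusted p = 0.216 by limma).

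Interferon-driven genes were lower in some members. Of 37 tested type I interferon and antiviral genes 0 were higher and 6 lower (16.2%), with a median of -0.37. With the slide as a block 0 were higher and 11 lower. Over all genes 4.37% were higher and 4.6% lower, and 8.59% and 8.54% with that block. At an unadjusted p under 0.05 limma gave 0 higher and 15 lower, and the shares above do not apply to that threshold. Isg20 read 43390, 43479, 58749 and 31390 units with IL-4 and LPS, against 77128, 91830 and 138110 with LPS alone. Isg20, an antiviral exonuclease, was lower, at -1.20 ± 0.20 (adjusted p = 0.000201) without overlap, and Tlr3, the receptor of double-stranded RNA, at -1.13 ± 0.26 (adjusted p = 0.00492). Ifit3 read 156800, 85733, 123750 and 127280 units with IL-4 and LPS, against 185280, 229260 and 262440 with LPS alone. Ifit3, an antiviral protein of the IFIT family, was lower, at -0.90 ± 0.24 (adjusted p = 0.017) (second probe -1.77 ± 0.29), a call lost without IL-4 with LPS array B (-0.73, adjusted p = 0.0897). The count of 6 was 2 without IL-4 with LPS array B, 3 without G, 4 without A, 9 without C and 11 without LPS array C. With IL-4 alone against untreated cells 0 of the same 37 genes were higher and 36 lower (background 5.53% lower), with a median of -1.53. The interaction, the IL-4 difference with LPS minus that without, was called for 19 of the 37 genes, against 1.59% of all genes. Of the interferon-inducible GTPases 1 of 15 was higher (6.67%) and 4 lower (26.7%). Gbp2b read 1093, 846, 2136 and 453 units with IL-4 and LPS, against 88.5, 105 and 191 with LPS alone. Gbp2b, a guanylate-binding protein, was the one that rose, by 3.08 ± 0.58 (adjusted p = 0.000839) without overlap. Of the 4 lower members 0 were called without IL-4 with LPS array B. Igtp, an immunity-related GTPase, differed by -0.57 ± 0.15 (adjusted p = 0.0123), a call lost without IL-4 with LPS array B (-0.43, adjusted p = 0.0842).

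Of 14 tested genes of MHC class II presentation 9 were higher and 0 lower (1 lower with the slide as a block), with a median of 1.45. Over all genes 4.37% were higher and 4.6% lower. The groups did not overlap for 9 of the 14, beside 6.7% of all genes. This list, like the others, was chosen with earlier results of these data known. At an unadjusted p under 0.05, to which the shares above do not apply, limma gave 9 higher and 1 lower. Ciita read 5946, 7999.7, 5665 and 5468 units with IL-4 and LPS, against 525, 878 and 1581 with LPS alone. Ciita, the master regulator of class II transcription, rose by 2.70 ± 0.40 (adjusted p = 3.98e-05). H2-Aa read 17173, 37545, 27412 and 20407 units with IL-4 and LPS, against 4601, 7432 and 13313 with LPS alone. H2-Aa, an alpha chain of a class II molecule, rose by 1.70 ± 0.35 (adjusted p = 0.00189), and all 4 IL-4 with LPS arrays were above the 7 LPS arrays for both genes. The peptide exchange factor H2-DM was higher in its subunits H2-DMa (2.01 ± 0.24), H2-DMb1 (1.78 ± 0.19) and H2-DMb2 (1.84 ± 0.22), of which the last 2 are near-identical neighbours that the array may not separate. Of 16 genes of MHC class I presentation 0 were called by limma, and 0 had an unadjusted p under 0.05. With the slide as a block 0 were higher and 1 lower, beside 8.59% and 8.54% of all genes. Among costimulatory genes 5 of 22 were higher (3 without IL-4 with LPS array C) and 3 lower (1 without array B). Slamf1, a receptor of the SLAM family, rose by 2.13 ± 0.54 (adjusted p = 0.0108), a call lost without IL-4 with LPS array C (1.77, adjusted p = 0.0635), and Vsir, the checkpoint protein VISTA, was lower, at -1.16 ± 0.17 (adjusted p = 3.49e-05).

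Lectins and phagocytic receptors went both ways, with 6 of 32 pattern recognition and scavenger receptor genes higher and 8 lower. Over all genes 4.37% were higher and 4.6% lower, and 8.59% and 8.54% with the slide as a block. Clec7a read 32403, 37643, 64665 and 40830 units with IL-4 and LPS, against 1914, 2465 and 6139 with LPS alone. Clec7a, the beta-glucan receptor dectin-1, rose by 3.93 ± 0.39 (adjusted p = 1.46e-07) and Clec10a, a galactose-type lectin, by 2.57 ± 0.35 (adjusted p = 1.26e-05). Mrc1 read 69703, 43032, 54372 and 62258 units with IL-4 and LPS, against 9836, 21140 and 24697 with LPS alone. The groups of these 3 lectins did not overlap. In the complement list 0 of 16 genes were higher and 5 lower, with a median of -0.59, and with the slide as a block 1 and 11. At an unadjusted p under 0.05 limma gave 1 higher and 10 lower, with no share of all genes given at that threshold. Cd55, a complement inhibitor on the cell surface, was lower, at -2.52 ± 0.31 (adjusted p = 4.14e-06), the protease gene C1s1 at -1.91 ± 0.24 (adjusted p = 5.53e-06) and Cfb, factor B of the alternative pathway, at -1.37 ± 0.29 (adjusted p = 0.00278). Cfb read 34119, 53752, 61692 and 15030 units with IL-4 and LPS, against 61896, 84879 and 156950 with LPS alone. The groups of these 3 genes did not overlap.

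Beside arginase, a transporter of its substrate was higher and an enzyme of arginine synthesis lower. Slc7a2 read 6701, 9274, 11363 and 5777 units with IL-4 and LPS, against 599, 731 and 1359 with LPS alone. Slc7a2, a transporter of cationic amino acids, rose by 3.31 ± 0.45 (adjusted p = 1.51e-05), while Ass1, which makes argininosuccinate from citrulline, was lower, at -1.17 ± 0.19 (adjusted p = 0.000133). Nos2 read 1969.5, 4041, 3204 and 1026 units with IL-4 and LPS, against 1292, 2093 and 3610.3 with LPS alone. Nos2, the inducible nitric oxide synthase, was not called (0.01 ± 0.56, adjusted p = 0.997), with a 95% interval of -1.15 to 1.16. Of 20 genes of arginine, nitric oxide and polyamine handling 3 were higher and 2 lower, beside 4.37% and 4.6% of all genes. In the prostanoid and leukotriene list 5 of 23 were higher and 4 lower. Ptgs1 read 7407, 5329.7, 3899 and 9188 units with IL-4 and LPS, against 328, 444 and 829.9 with LPS alone. Ptgs1, the constitutive cyclooxygenase COX-1, rose by 3.68 ± 0.44 (adjusted p = 2.69e-06). Ptgs2 read 54300, 66708, 86935 and 47942 units with IL-4 and LPS, against 23461, 28214 and 32960 with LPS alone. Ptgs2, the inducible COX-2, was not called (1.16 ± 0.47, adjusted p = 0.143) although its groups did not overlap, and was called with the slide as a block (1.13, adjusted p = 0.0428). Downstream of both, Ptges (prostaglandin E synthase) was lower, at -1.91 ± 0.30 (adjusted p = 9.87e-05) and Hpgds (a prostaglandin D synthase) at -1.82 ± 0.24 (adjusted p = 1.2e-05). The phospholipases Pla2g5 and Pla2g15 rose by 2.69 ± 0.34 and 1.58 ± 0.17.

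Genes of glycolysis and the hypoxia response were lower in 9 of 26 tested members and higher in 1 (5 lower without IL-4 with LPS array B or C), with a median of -0.30. Over all genes 4.6% were lower and 4.37% higher. Pfkfb3 read 19945, 41969, 25457 and 6909.8 units with IL-4 and LPS, against 46286, 58675 and 126630 with LPS alone. Pfkfb3, which makes the activator of phosphofructokinase, was lower, at -1.82 ± 0.34 (adjusted p = 0.000692). Slc16a3 read 17281, 16719, 11366 and 20746 units with IL-4 and LPS, against 32707, 46644 and 69750 with LPS alone. Slc16a3, a lactate exporter, was lower, at -1.46 ± 0.21 (adjusted p = 2.86e-05), Pdk1, which restrains pyruvate dehydrogenase, at -1.35 ± 0.24 (adjusted p = 0.000456) and Bnip3, a mitophagy receptor, at -1.53 ± 0.29 (adjusted p = 0.000983). None of these 4 genes had overlapping groups. Slc2a3, a glucose transporter, is uncertain because another of its probes moved the other way. Oxidative phosphorylation genes were higher in 10 of 30 members and lower in 0 (also 0 lower at an unadjusted p under 0.05 by limma), with a median of 0.44. Cox8a read 94965, 72295, 103400 and 84367 units with IL-4 and LPS, against 34017, 49010 and 60596 with LPS alone. Cox8a, a subunit of cytochrome c oxidase, rose by 0.88 ± 0.17 (adjusted p = 0.000953) and Ndufb5, a subunit of complex I, by 0.86 ± 0.17 (adjusted p = 0.0016). These shifts depended on the scaling, since 0 of the 30 were called with the array median in place of the 75th percentile and 1 with normexp correction, and 4 were called without IL-4 with LPS array C. Without LPS, IL-4 gave 29 of 30 higher and 0 lower (background 5.77% higher). The interaction was called for 0 of the 30 by limma, beside 1.59% of all genes, so this count does not show equal differences with and without LPS.

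Coagulation, matrix and growth factor genes were higher in several members. Of 36 genes of proteases, coagulation and matrix 9 were higher and 4 lower, beside 4.37% and 4.6% of all genes. F10 read 83341, 125350, 138210 and 74315 units with IL-4 and LPS, against 5953, 12524 and 27195 with LPS alone. The coagulation factors F10, F7 and F3 (tissue factor) rose by 3.09 ± 0.34 (adjusted p = 8.95e-07), 2.73 ± 0.24 (adjusted p = 3.2e-08) and 2.35 ± 0.52 (adjusted p = 0.00347), and Timp1, an inhibitor of matrix metalloproteinases, by 3.18 ± 0.31 (adjusted p = 1.33e-07). Timp1 read 50533, 52701, 74240 and 15944 units with IL-4 and LPS, against 2691, 5892 and 7776 with LPS alone. In each of these 4 genes the groups stood apart. Among 20 growth and repair factors 6 were higher and 1 lower, and 3 higher in the fits with the fewest, among them those without IL-4 with LPS array A or G. Hbegf read 1611, 1429, 3139 and 1389 units with IL-4 and LPS, against 72.3, 99.7 and 191 with LPS alone. Hbegf, an EGF receptor ligand, rose by 4.00 ± 0.42 (adjusted p = 3.09e-07) and Igf1, an insulin-like growth factor, by 1.52 ± 0.20 (adjusted p = 8.04e-06). Other Igf1 probes, above background on all 11 arrays, gave 1.36 ± 0.21 and 3.30 ± 0.29, so the size of its rise is uncertain. Pdgfb, a platelet-derived growth factor chain, was lower, at -1.85 ± 0.34 (adjusted p = 0.000567) and -1.14 ± 0.33 on a second probe. Of 31 cytokine receptor genes 8 were higher and 2 lower, with Il1r1, the signalling IL-1 receptor, at 3.22 ± 0.42 (adjusted p = 7.77e-06), Il6st, the shared gp130 chain, at 1.96 ± 0.17 (adjusted p = 2.34e-08) and Il27ra, a chain of the IL-27 receptor, at 1.86 ± 0.19 (adjusted p = 2.01e-07).

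In the lysosome and proton pump list 5 of 25 genes were higher and 1 lower, beside 4.37% and 4.6% of all genes. Atp6v0d2 read 1622, 1013, 1592 and 1887 units with IL-4 and LPS, against 121, 160.1 and 281 with LPS alone. Atp6v0d2, a subunit of the vacuolar proton pump used by osteoclasts, rose by 3.04 ± 0.29 (adjusted p = 6.03e-08) and Atp6v0a1, another subunit of the pump, by 1.38 ± 0.22 (adjusted p = 0.000116). Tfrc read 6468, 2895, 5155 and 4759 units with IL-4 and LPS, against 368, 873 and 990.3 with LPS alone. Tfrc, the transferrin receptor, rose by 2.70 ± 0.27 (adjusted p = 1.38e-07), the zinc transporter gene Slc30a4 by 2.48 ± 0.33 (adjusted p = 9.09e-06), and Slc11a1, a metal transporter of the phagosome, was lower, at -1.20 ± 0.14 (adjusted p = 1.18e-06). These 5 genes had no overlap between groups. Of 31 cholesterol, LXR and lipid genes 3 were higher and 2 lower, and 1 lower without IL-4 with LPS array G. With the slide as a block 10 were higher and 4 lower, beside 8.59% and 8.54% of all genes. Fabp4, a fatty acid binding protein, rose by 2.23 ± 0.26 (adjusted p = 1.21e-06), with IL-4 with LPS array C highest at 43415 units. Pparg read 3248, 2360.3, 2082 and 3288 units with IL-4 and LPS, against 3811, 4638 and 4942 with LPS alone. Pparg, the nuclear receptor PPAR gamma, was lower with IL-4 and LPS at -0.76 ± 0.18 (adjusted p = 0.00874), a call lost without IL-4 with LPS array C (-0.63, adjusted p = 0.0534), whereas IL-4 alone gave 1.32 ± 0.18 (adjusted p = 1.23e-05) against untreated cells.

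IL-4 alone against untreated cells, measured in other arrays, called 2532 genes (11.3%), 1293 higher (5.77%) and 1239 lower (5.53%). The 4 IL-4 alone arrays lay on slides 1, 2, 4 and 9, as did the 4 IL-4 with LPS arrays. Slides 4 and 9 held no untreated array. The comparisons are therefore not independent, and the part of slides in the overlap was not tested. Genes higher in both comparisons numbered 594, which is 60.61% of those higher with LPS and 45.94% of those higher without. Lower in both were 494, which is 47.91% of those lower with LPS and 39.87% of those lower without. Called in opposite directions were 8 genes higher with LPS and lower without, and 10 lower with LPS and higher without. The interaction was called for 356 genes (1.59%; 0.906% above 0 and 0.683% below), of which 169 were among the 2011. It is not given for Retnla and Arg1, which were below background on all LPS arrays.

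The interaction was called for 14 of 55 genes, the 30 with the largest rises and falls and a set of cytokine, receptor and signalling genes, beside 1.59% of all genes. The 30 were chosen for their difference with LPS, which enters the interaction, so the count is a description. Ccl17 was higher by 5.33 ± 0.45 (adjusted p = 1.05e-08) with LPS and by 1.13 ± 0.45 (adjusted p = 0.113) without, an interaction of 4.20 ± 0.63 (adjusted p = 0.000334). Il12a was called with LPS, at 3.80 ± 0.50 against -0.49 ± 0.50 without, with an interaction of 4.28 ± 0.71 (adjusted p = 0.00101). Il12a was well above background on 1 of the 4 IL-4 alone arrays. Socs1 and Edn1 (endothelin 1, a vasoconstrictor peptide) had interactions below 0. IL-4 alone raised Socs1 by 5.07 ± 0.22 (adjusted p = 4.67e-14) and Edn1 by 6.65 ± 0.37 (adjusted p = 2.75e-12), while with LPS the differences were 0.56 ± 0.22 and 0.70 ± 0.37 and not called, although Edn1 was called with the slide as a block (0.86, adjusted p = 0.0104). Their interactions were -4.51 ± 0.31 (adjusted p = 3.57e-09) and -5.96 ± 0.53 (adjusted p = 1.91e-07). Edn1 was well above background on 2 of the 7 untreated arrays, so its difference without LPS rests on levels near background. Tnf and Cxcl10 were lower with IL-4 alone, at -2.49 ± 0.36 (adjusted p = 1.69e-05) and -4.80 ± 0.24 (adjusted p = 5.03e-13), and had interactions of 2.54 ± 0.51 (adjusted p = 0.00625) and 4.58 ± 0.34 (adjusted p = 1.36e-08). Cd14 was lower both ways, at -1.24 ± 0.18 with LPS and -3.06 ± 0.18 (adjusted p = 6.22e-12) without, with an interaction of 1.83 ± 0.25 (adjusted p = 0.000137).

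**Figure D5:**
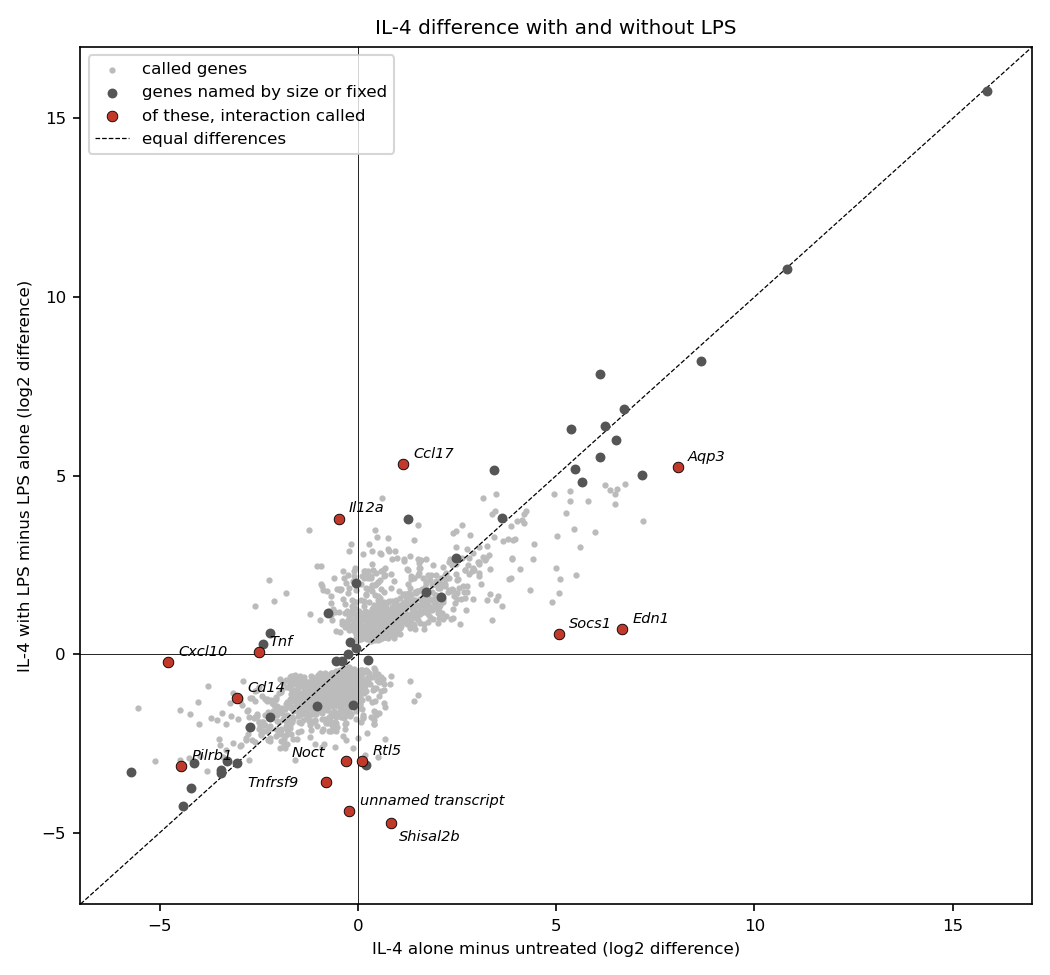
Log2 difference made by IL-4 with LPS (IL-4 with LPS minus LPS alone, vertical) against that without LPS (IL-4 alone minus untreated, horizontal). Light points are the 2011 called genes, dark points the 55 genes named by size or fixed, and red points the 14 of these whose interaction was called; Ccl17 and Il12a lie above the dashed line of equal differences and Socs1 and Edn1 below it.

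Among the largest falls 6 had a called interaction. Rtl5 had an interaction of -3.09 ± 0.44 (adjusted p = 0.000168) and Noct of -2.69 ± 0.27 (adjusted p = 1.81e-06). Shisal2b was not well above background on any IL-4 with LPS, IL-4 alone or untreated array, and ENSMUST00000030808 on 0, 0 and 1 of them, so an IL-4 difference without LPS was not measurable and no interaction is read from them. Tnfrsf9 was above background on 0 of 4 IL-4 alone and 4 of 7 untreated arrays, and its probes disagreed. Pilrb1 was lower with and without LPS, with an interaction of 1.32 ± 0.31 (adjusted p = 0.0251), and Aqp3 rose more without LPS at 8.06 ± 0.40 (adjusted p = 4.39e-13), with an interaction of -2.82 ± 0.57 (adjusted p = 0.00686).

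Genes that LPS raises were examined in arrays not used to choose them, though not in independent ones. LPS array D, used to choose, shared slide 2 with IL-4 with LPS array A (correlation 0.586 after removal of group means). LPS array E shared slide 4 with IL-4 with LPS array C (0.506). The choice set LPS against untreated arrays of the same letter, although letters did not pair the LPS arrays with the IL-4 with LPS arrays. LPS raised 2662 genes at least 2-fold over untreated cells in each of experiments D, E and F, and IL-4 with LPS was then set against LPS arrays A, B, C and G. Of these genes 98 (3.681%) were higher with IL-4 and LPS and 172 (6.461%) lower, beside 5.74% called, 3.04% higher and 2.7% lower, of all genes in that fit. Their median difference was -0.0077 and that of all genes 0.176. Of the 270 called 36.3% were higher, against 26.3% with the array median as the scaling and 53% of the 117 called in a model of the compared groups alone. The count was 172 without LPS array A and 169 without LPS array G.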

How the data were processed

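RNA of 28 cultures was hybridised to 1-colour 44K oligonucleotide arrays, 1 array a sample. Intensities were extracted with Agilent Feature Extraction 9.5.1, per the submitters' processing notes, and per the file headers the deposited processed intensity was detrended, had low spots replaced by surrogates and had no local background subtracted. The log2 of that intensity was taken and each array's 75th percentile subtracted. Outlier spots were left out, spots of a probe averaged and a gene represented by its brightest probe. Of 41174 probes 22951 were named by accession, 6659 by symbol and 3109 by synonym, and 8455 kept the array's name. Genes whose probe passed the scanner software's background call on 3 or more of 28 arrays were tested (22407 genes). limma 3.58.1 (R 4.3.3) was fitted to 6 group means over 28 arrays, two-sided, with Benjamini-Hochberg adjustment, and checked on simulated data. The number of arrays limits the precision. Named genes were the 15 largest rises and falls among called genes, up to 5 called members with the largest difference in each list (both with the probe above background on every array of the brighter group), and 28 fixed genes. Members and lists were chosen with earlier results of these data known. A fold of at least N sets the brighter group's mean against the lowest signal well above background on each dim array. Alternatives were other background corrections, scalings, filters, probes, sets of arrays and blocks. Promoter windows are from RefSeq. Figures were drawn with matplotlib 3.10.9.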

Additional observations from a re-analysis of the deposited data

Results flagged for a closer look

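In a few genes 1 array stood apart from the others of its group, by the gap to its nearest neighbour as a share of the group's range. Of 328 gene and group pairs 17 passed Dixon's limit, and chance passes about 1 group in 20. Among the 4 IL-4 with LPS arrays these were Ccl8 on array G at 0.895, Tlr3 on G at 0.85, C1s1 on G at 0.938, Irgm2 on B at 0.836, Il27 on B at 0.83, Agmat on C at 0.849 and Fabp4 on C at 0.88. Among the 7 LPS arrays 7 of the 10 cases were on array C, with Fn1 at 0.612, Cxcl11 at 0.581, Cd69 at 0.665, Irf5 at 0.623, Il1r1 at 0.677, Irf4 at 0.664 and Socs1 at 0.638. The others were Itgax on array F at 0.909, Lbp on F at 0.577 and Ccl8 on B at 0.577.

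The IL-4 difference differed between cells with and without LPS, by limma's interaction term, in 14 of 55 genes, beside 1.59% of all genes tested. Of the 55, 30 were chosen for their difference with LPS, which enters the interaction. The interaction was above 0 for Cxcl10 (4.58), Il12a (4.28), Ccl17 (4.20), Tnf (2.54), Cd14 (1.83) and Pilrb1 (1.32). It was below 0 for Edn1 (-5.96), Shisal2b (-5.55), Socs1 (-4.51), ENSMUST00000030808 (-4.18), Rtl5 (-3.09), Aqp3 (-2.82), Tnfrsf9 (-2.80) and Noct (-2.69). Shisal2b was above background on 0 and ENSMUST00000030808 on 1 of the IL-4 with LPS, IL-4 alone and untreated arrays, so their values do not measure a differing IL-4 difference, and Tnfrsf9 was above background on 0 of 4 IL-4 alone arrays.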

How the results depend on the processing

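Of 150 called named genes 109 stayed called in every fit without 1 array and 41 were lost in at least 1. With normexp correction 65 of them lost their call, and 41 did in a model of the compared groups alone. The 2011 calls became 534 with normexp correction (258 higher, 276 lower), 1103 with the array median (412 higher), 1156 in a model of the compared groups alone (574 and 582), 3839 with the slide as a block (1925 and 1914) and 3227 with the scan day as a block (1526 and 1701). Without 1 array they ran from 1560 to 2214. Among alternatives chosen after seeing the data, arrays of the 4 shared slides gave 1084 (520 higher, 564 lower), pairs within slides 2847 and arrays without slide 9 1456. IL-4 against untreated called 735 with normexp, 1527 with the array median, 1669 with experiments A, B, C and G and 3932 with the scan day. The interaction called 40, 184, 164 and 908 under the same settings and 1062 with the slide. Calls among LPS-induced genes were 56 with normexp, 117 in the model of the compared groups and 169 to 283 without 1 array. The cause of these shifts was not tested. Some signs turned. The median of inflammatory cytokines was 0.434 in the main setting and -0.455 with genes above background on all 28 arrays. That of dendritic cell markers was -0.45 in the main setting, 0.074 with genes above background on all 28 arrays and 0.139 with the mean of probes. Slc2a3 was -1.145 in the main setting and 0.244 with the mean of probes. Experiment letters did not pair the arrays (same-letter correlations -0.529 to 0.441), and the letter as replicate block gave 1550 calls. A gene called in neither setting was counted as unmoved even if its sign turned, and a list's median was judged by its SD over the IL-4 with LPS arrays.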

Other observations

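Of 37 tested cell cycle genes 0 were called by limma, with 0 higher and 3 lower at an unadjusted p under 0.05. Of 24 genes of the citrate cycle and itaconate 3 were higher and 0 lower, beside 4.37% and 4.6% of all genes. At an unadjusted p under 0.05, for which no share of all genes is given, 13 were higher and 0 lower. Among the 3 was Aco1, a cytosolic aconitase, at 1.05 ± 0.20 (adjusted p = 0.000955 by limma). Of the list 1 was called without IL-4 with LPS array A, 0 with the array median (Aco1 0.94, adjusted p = 0.103), 1 with normexp and 7 with the slide as a block. With that block 8.59% of all genes were higher and 8.54% lower. Of 14 inflammasome and NOD sensor genes 0 were higher, also at an unadjusted p under 0.05, and 3 lower, of which 1 was called without IL-4 with LPS array B or G or LPS array A. Of 19 survival and death genes 1 was higher and 1 lower (5.26% each, beside 4.37% and 4.6% of all genes). The higher one was Pmaip1, the BH3-only protein NOXA, at 1.90 ± 0.33 (adjusted p = 0.000366 by limma), with no overlap between the groups.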
